A study of Mus musculus with 170 samples.

Results

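Lungs taken 24 h after exposure to lipopolysaccharide (LPS, the endotoxin of the bacterial outer membrane) were compared with lungs taken 24 h after saline. The comparison rests on 10 of the 170 libraries of a study of wildfire smoke in mice, 4 from LPS animals and 6 from saline animals, chosen by the tissue, time and treatment given for each sample. All animals were female CD-1 mice, an outbred stock, and each library is a separate animal by its title. In the other arms, condensates of 10 smokes in saline were delivered to the lungs by oropharyngeal aspiration, and lungs were also taken at 4 h. No LPS dose is stated in the labels. The 24 h LPS effect was also set against the LPS effect at 4 h (4 LPS and 6 saline lungs) and against the 60 lungs of the 10 smokes at 24 h.

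LPS is carried to CD14 and recognised by the receptor TLR4 with MD-2, which signals through MyD88 to NF-kB and through TRIF to interferon regulatory factors. The NF-kB arm turns on chemokines that call in neutrophils, cytokines such as TNF and interleukin 6, and its own inhibitors. The interferon arm, through STAT proteins, turns on antiviral genes, interferon-inducible GTPases that attack microbe-containing vacuoles, and the antigen presentation machinery. In the lung the response is known for filling the alveoli with neutrophils and later with monocyte-derived macrophages.

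RNA was measured with probes, and the deposited counts were summed per gene. Total counts were 5.19 M to 6.35 M in the LPS lungs and 5.63 M to 6.67 M in the saline lungs, and 14335 to 15290 genes had a count in LPS lungs against 13196 to 15400 in saline lungs. The lowest of these, saline replicate 2, also had the highest share of mitochondrial counts (0.208%, against 0.0868% to 0.12% in the other saline lungs). It is kept, and the counts of called genes without it are in the closing section. Replicate 1 of each group was on plate 1 and all others were on plate 2. Levels below are CPM, counts scaled to the TMM-adjusted size of each library, and changes are log2 values of LPS over saline. The ± on a log2 change or difference is an approximate standard error. It was worked back from the F statistic of the edgeR test and was not estimated directly. A gene is called at an adjusted p under 0.05 (edgeR quasi-likelihood test, Benjamini-Hochberg over 14458 genes). The spread behind the p-values is that within all lung groups of the study, fitted together.

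At 24 h, 1096 genes were called higher in LPS lungs, which is 7.58% of the genes tested, and 652 were called lower (4.51%). Of the called genes, 490 were higher and 181 were lower by at least 2 on the log2 scale. In 1067 genes (7.38%) every LPS lung lay above every saline lung, and in 503 (3.48%) every LPS lung lay below. The median change over all genes tested was -0.12, and list medians below are read beside it. Of 761 called genes measured by several probe rows, 737 had all rows on the same side of 0. In 222 of the 761 every row was itself called in that direction, and in 0 were rows called in both directions. LPS replicate 2 held the highest of the 4 LPS levels for 836 of the 1096 higher genes (76.3%) and the lowest for 404 of the 652 lower genes (62%). Without it 752 genes were called higher and 234 lower. Lower genes numbered 415 without LPS replicate 1 and 387 without replicate 3, and a fit of these 10 lungs alone called 845 higher and 313 lower. It also had the smallest scaling factor of the LPS lungs (0.716, against up to 0.89), and the part of this in the counts was not tested.

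The 4 genes chosen to mark the response were high in every LPS lung. Acod1, which makes the antimicrobial metabolite itaconate in activated macrophages, had 1400, 4555, 1942 and 1517 CPM in LPS replicates 1 to 4, against 0.737 to 2.25 CPM with a median of 1.45 CPM in saline lungs. Gbp2, an interferon-inducible GTPase, had 5858, 13000, 10700 and 9391 CPM in LPS lungs, against 226 to 334 CPM with a median of 293 CPM in saline lungs. Timp1, a secreted inhibitor of matrix metalloproteinases, had 1063, 2404, 759 and 718 CPM in LPS lungs, against 19.3 to 33.3 CPM with a median of 24.5 CPM in saline lungs. In each of these genes the lowest LPS lung stood far above the highest saline lung, and replicate 2 was the highest LPS lung. Ly6g, a surface antigen of mouse neutrophils, had 1092, 1493, 1484 and 955 CPM in LPS lungs, against 64.9 to 138.8 CPM with a median of 86.8 CPM in saline lungs, again with no overlap. In bulk tissue fewer or more cells of a type and less or more RNA per cell cannot be told apart. The log2 changes were 10.67 ± 1.29 for Acod1, 5.08 ± 0.38 for Gbp2, 5.63 ± 0.43 for Timp1 and 3.69 ± 0.32 for Ly6g, and the largest adjusted p of the 4 was 3.66e-11.

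**Figure D1:**
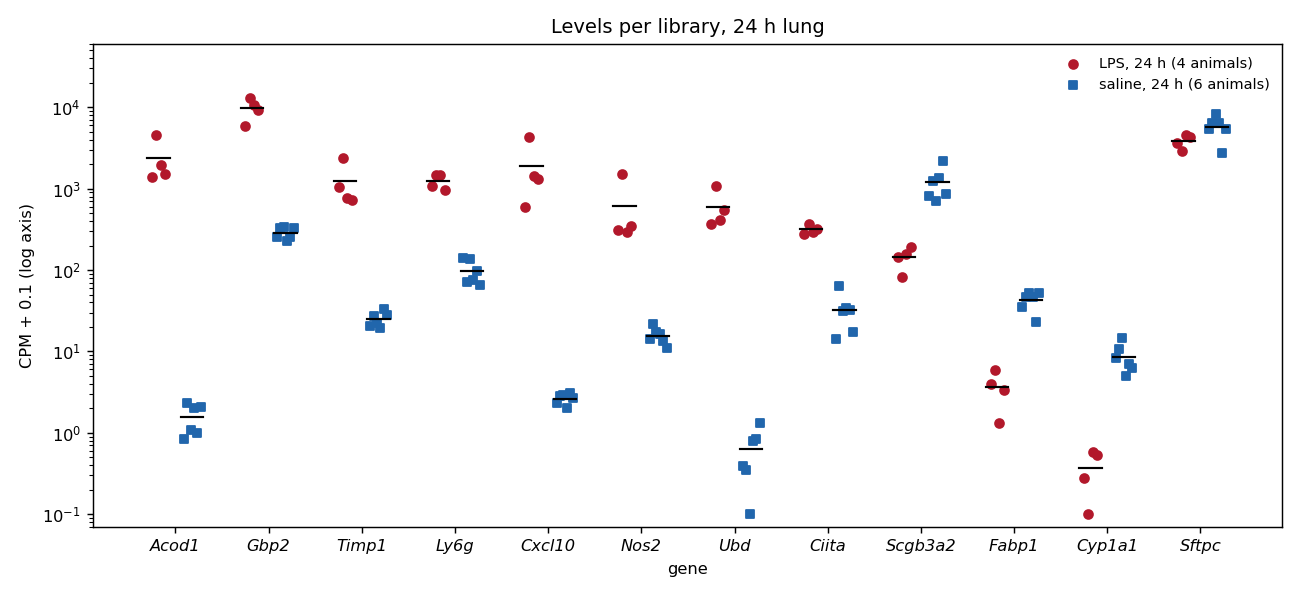
Level of 12 genes in each lung at 24 h, as CPM plus 0.1 on a log axis, with LPS lungs (circles, 4 animals) left of saline lungs (squares, 6 animals) and a bar at each group mean. Acod1, Gbp2, Timp1, Ly6g, Cxcl10, Nos2, Ubd and Ciita were higher in every LPS lung, Scgb3a2, Fabp1 and Cyp1a1 were lower in every LPS lung, and the Sftpc ranges overlap.

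Among the genes that sense endotoxin, the co-receptor Cd14 was called higher and the receptor Tlr4 was not called. Tlr4 had 22.8, 20.5, 25.2 and 26.8 CPM in LPS lungs, against 0 to 51.6 CPM with a median of 19.1 CPM in saline lungs, and its change of 0.10 ± 0.67 was not called (adjusted p = 0.959). All 4 LPS lungs lay inside the wide saline range. Cd14, the co-receptor that hands LPS to TLR4, had 18.8, 44.05, 11.5 and 11.2 CPM in LPS lungs, against 0 to 1.97 CPM with a median of 1.11 CPM in saline lungs, a change of 4.35 ± 0.64 (adjusted p = 2.75e-08) with no overlap. Of the 18 genes of this list, all tested, 7 were called higher and none lower, with a median change of 0.66. The others called were Tlr2 (4.29 ± 0.59), which recognises bacterial lipoproteins, the adaptor Myd88 (1.98), the kinases Irak2 (1.44 ± 0.19), Irak3 (1.73) and Ikbke (2.92 ± 0.48), and the cytosolic sensor Nod2 (2.18). Ly96, which encodes MD-2, had a change of 0.56 and was not called. On plate 2 alone 4 of the list were called.

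Of the 16 NF-kB subunits and feedback genes, 15 were called higher and none lower, and the median change was 1.79. Bcl3 was the called member whose groups overlapped. Tnfaip3, which encodes the deubiquitinase A20 that shuts the pathway down, had 132.3, 299, 187 and 147 CPM in LPS lungs, against 8.26 to 34.6 CPM with a median of 20.4 CPM in saline lungs, a change of 3.19 ± 0.42. Tnip3, an A20-binding inhibitor, changed by 4.34 ± 0.42, Zc3h12a, an RNase that degrades cytokine mRNAs, by 2.48 ± 0.25, and Tnip1 by 1.82 ± 0.24. LPS and saline lungs did not overlap in any of these. Rela (0.36) was the member not called.

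The neutrophil-attracting chemokines and colony stimulating factors were mostly called higher, with 9 of 10 tested members called higher, none lower, and a median change of 4.398. Cxcl2 had 211, 634, 399 and 296 CPM in LPS lungs, against 1.92 to 8.01 CPM with a median of 3.68 CPM in saline lungs, a change of 6.54 ± 0.89. Cxcl1 had 108.8, 210.5, 112.3 and 90.9 CPM in LPS lungs, against 0 to 5.12 CPM with a median of 2.02 CPM in saline lungs, a change of 5.74 ± 0.69. In both ligands of the neutrophil receptor CXCR2 the lowest LPS lung was over the highest saline lung. Csf3, the granulocyte colony stimulating factor, had 11.7, 45.3, 18.3 and 23.3 CPM in LPS lungs, against 0 to 0.328 CPM with a median of 0.0752 CPM in saline lungs, a change of 7.31 ± 1.05. Cxcl3 had 150 counts over the LPS lungs and 1 count over the saline lungs, a ratio of 294-fold with an exact 95% counting interval of 52 to 11700. Csf2, which supports alveolar macrophages, changed by 3.92 ± 0.64. Cxcl15, a chemokine made by lung epithelium, was the member not called (-0.75). Ppbp was not analysed here and Il17a was too low to be tested.

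Of 13 CC chemokines tested, a family that attracts monocytes and lymphocytes among other cells, 8 were called higher and 1 lower, with a median of 3.69 over the list. Ccl2 had 136.4, 355, 173 and 144 CPM in LPS lungs, against 0 to 2.36 CPM with a median of 1.26 CPM in saline lungs, a change of 7.25 ± 0.86, and Ccl7, a second ligand of the monocyte receptor CCR2, changed by 7.91 ± 0.80. Ccl3 (7.07 ± 0.86) and Ccl4 (6.98 ± 0.89), which attract monocytes and T cells, were likewise higher in every LPS lung than in any saline lung. The CC chemokine called lower was the lymphoid chemokine Ccl21a (-1.01), with overlapping groups. Leaving out each library in turn left 0 or 1 of the list called lower. Cxcl10, an interferon-induced ligand of CXCR3, had 602, 4312, 1433 and 1317 CPM in LPS lungs, against 1.91 to 2.99 CPM with a median of 2.65 CPM in saline lungs, a change of 9.498 ± 0.91 (adjusted p = 6.04e-16). Its LPS lungs spread widely among themselves, with replicate 2 highest and replicate 1 lowest, yet all stood far above saline. Cxcl9 had 206 counts over the LPS lungs and 1 over the saline lungs, a ratio of 404-fold with an exact 95% counting interval of 71.7 to 16000. The receptor Cxcr3 had 4.25, 9.48, 5.53 and 4.10 CPM in LPS lungs, against 0.750 to 4.18 CPM with a median of 2.45 CPM in saline lungs, and was not called (1.27 ± 0.58, adjusted p = 0.151).

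Of 10 inflammatory cytokines tested, 6 were called higher and none lower, with a median of 4.27. Tnf had 227, 668, 311 and 258 CPM in LPS lungs, against 2.41 to 10.3 CPM with a median of 5.33 CPM in saline lungs, a change of 6.01 ± 0.56. Il6 had 24.6, 121.7, 33.2 and 46.6 CPM in LPS lungs, against 0 to 1.96 CPM with a median of 0.746 CPM in saline lungs, a change of 6.16 ± 0.88. For these and for Il1b (5.13 ± 0.93) and Il27 (4.57 ± 0.91) the groups did not overlap. Il12a, Il15, Il18 and Il33 were not called, with changes of 1.18, 0.42, -0.68 and -1.17. The antagonists of these cytokines were higher as well, with 5 of 7 tested called and a median of 2.98. Il1rn, the interleukin 1 receptor antagonist, changed by 5.92 ± 0.89, the decoy receptor Il1r2 by 5.98 ± 1.002, the interleukin 18 binding protein Il18bp by 3.32 ± 0.41, and the TNF receptor Tnfrsf1b by 2.98 ± 0.30. Il10 was too low to be tested, with 35 counts over the LPS lungs and 2 over the saline lungs.

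All 26 antiviral genes were called higher, with a median change of 3.87, and so were 17 of 20 interferon-inducible GTPases, with a median of 4.93. Ifit2, which binds foreign RNA, had 493, 2438, 1645 and 795 CPM in LPS lungs, against 28.7 to 69.1 CPM with a median of 42.99 CPM in saline lungs, a change of 4.80 ± 0.47. Oasl2, of the oligoadenylate synthetase family, had 1230, 2533, 2107 and 1438 CPM in LPS lungs, against 71.3 to 142 CPM with a median of 86.5 CPM in saline lungs, a change of 4.27 ± 0.31. Zbp1, a sensor of Z-form nucleic acid that can start cell death, changed by 5.77 ± 0.57, and Bst2, which tethers budding virus, by 3.43 ± 0.32. No antiviral gene had an LPS lung inside the saline range. Leaving out a single library of either group left 25 or 26 of the 26 called, and on plate 2 alone 22 were called.

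Gbp3 had 3989, 8046, 6367 and 4745 CPM in LPS lungs, against 135.4 to 265 CPM with a median of 162 CPM in saline lungs, a change of 4.999 ± 0.44. Irgm1, which regulates the other immunity-related GTPases, had 1910, 3665, 3204 and 2408 CPM in LPS lungs, against 75.1 to 181 CPM with a median of 100.3 CPM in saline lungs, a change of 4.66 ± 0.45. Gbp2b changed by 5.72 ± 0.67. Summed over the 20 GTPases, LPS lungs held 17750 to 30130 CPM, against 546.0 to 982.0 CPM in saline lungs. Gbp6 (5.10), Gbp7 (2.43) and Gvin1 (2.30) were the members not called. These genes form clusters of near-identical copies, as do Tgtp1 and Tgtp2, the Ly6 genes and the Saa genes, so the split of counts between close relatives is uncertain.

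Ifng, the type II interferon itself, had 12.03, 81.7, 31.5 and 31.3 CPM in LPS lungs, against 0 to 0.983 CPM with a median of 0.444 CPM in saline lungs, a change of 6.47 ± 0.96 (adjusted p = 3.83e-08). Every LPS lung exceeded every saline lung, and replicate 2 was the highest. Ifnb1 was too low to be tested, with 13 counts over the LPS lungs and 4 over the saline lungs. In the interferon and STAT signalling list, 13 of 20 tested members were called higher, none lower, with a median of 1.47. The transcription factors Irf7 (4.96 ± 0.45), Irf1 (3.44 ± 0.42), Stat2 (2.73 ± 0.30) and Irf8 (2.38 ± 0.27) were called, as were the feedback inhibitors Socs1 (5.31) and Socs3 (3.20). The receptor chains Ifnar1 (0.19) and Ifngr1 (-0.06) and the kinases Jak1 (0.28) and Tyk2 (0.36) were not called.

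Promoter windows were read from RefSeq (GRCm38.p6, 250 bases before to 50 after each gene start) and searched on both strands for 3 motif cores. One of them is not reported here, so the shares below are not the whole search. The others were the interferon-stimulated response element core (GAAA and GAAA with any 2 bases between) and the NF-kB site core (GGG and TTTCC with any 2 bases between). The first was found in 10.1% of the 1075 windows of genes called higher, in 2.36% of the 635 windows of genes called lower and in 3.14% of the 13965 windows of all genes tested. The NF-kB core was found in 4.47% of the windows of genes called higher, in 1.26% of those of genes called lower and in 1.62% of those of all genes tested. Over all 32851 windows of the table the response element core was in 3.44% and the NF-kB core in 1.63%. A match is a description of the letters, not a site, and genes with several start sites have several windows. Of the 144 named genes 73.6% had a window. The 8 stretches below, 150 bases before to 50 after the start, show the letters in Gbp2, Gbp3 and Irgm1 of the interferon-inducible GTPases, in the chemokine and cytokine genes Cxcl1, Cxcl2 and Il6, and in Calhm6 and Ubd, and were chosen after the matches were seen. Capitals mark the response element core, on either strand, in Gbp2 (chr3:142620513-142620712, plus strand), Gbp3 (chr3:142559894-142560093, plus), Irgm1 (chr11:48871371-48871570, minus) and Calhm6 (chr10:34127923-34128122, minus).
Gbp2: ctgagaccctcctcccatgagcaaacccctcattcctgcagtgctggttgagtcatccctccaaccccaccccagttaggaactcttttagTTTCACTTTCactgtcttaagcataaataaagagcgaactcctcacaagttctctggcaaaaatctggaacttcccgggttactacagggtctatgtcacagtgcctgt
Gbp3: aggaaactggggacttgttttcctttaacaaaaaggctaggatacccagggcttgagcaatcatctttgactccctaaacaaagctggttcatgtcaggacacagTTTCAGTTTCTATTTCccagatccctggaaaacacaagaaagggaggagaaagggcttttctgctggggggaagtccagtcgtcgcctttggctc
Irgm1: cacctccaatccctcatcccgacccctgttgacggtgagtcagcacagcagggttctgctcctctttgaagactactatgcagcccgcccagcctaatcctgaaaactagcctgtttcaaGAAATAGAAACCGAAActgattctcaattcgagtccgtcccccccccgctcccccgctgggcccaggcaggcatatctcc
Calhm6: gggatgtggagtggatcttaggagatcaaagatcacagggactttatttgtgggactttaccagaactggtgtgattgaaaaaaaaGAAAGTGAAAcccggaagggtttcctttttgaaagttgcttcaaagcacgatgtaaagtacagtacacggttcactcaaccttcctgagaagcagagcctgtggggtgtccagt
In Gbp3 and Irgm1 2 matches overlap, at -45 and -39 and at -30 and -24 from the start. In the next 4, capitals mark the NF-kB core in Cxcl1 (chr5:90891095-90891294, plus), Cxcl2 (chr5:90903749-90903948, plus), Il6 (chr5:30012964-30013163, plus) and Ubd (chr17:37193742-37193941, plus).
Cxcl1: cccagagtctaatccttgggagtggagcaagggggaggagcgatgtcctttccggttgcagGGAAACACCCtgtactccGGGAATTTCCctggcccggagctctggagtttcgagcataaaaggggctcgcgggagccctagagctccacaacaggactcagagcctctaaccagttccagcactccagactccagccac
Cxcl2: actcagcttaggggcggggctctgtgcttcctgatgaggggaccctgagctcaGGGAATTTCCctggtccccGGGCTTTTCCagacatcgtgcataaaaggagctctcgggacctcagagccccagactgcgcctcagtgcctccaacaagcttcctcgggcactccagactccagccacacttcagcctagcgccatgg
Il6: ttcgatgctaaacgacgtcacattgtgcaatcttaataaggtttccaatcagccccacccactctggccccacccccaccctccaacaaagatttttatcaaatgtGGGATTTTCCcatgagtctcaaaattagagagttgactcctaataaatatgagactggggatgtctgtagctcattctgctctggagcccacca
Ubd: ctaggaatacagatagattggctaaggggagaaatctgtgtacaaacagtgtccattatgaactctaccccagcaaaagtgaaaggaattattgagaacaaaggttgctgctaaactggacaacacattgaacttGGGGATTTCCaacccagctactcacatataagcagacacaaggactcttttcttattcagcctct
Cxcl1 and Cxcl2 each hold 2 matches, at -89 and -71 in Cxcl1 and at -97 and -78 in Cxcl2. The windows of Acod1, Timp1 and Ly6g hold neither core. Of 78 named genes called higher whose windows were counted, 11 held the response element core and 11 the NF-kB core. Of 26 named genes called lower, 1 and 0 did.

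**Figure D2:**
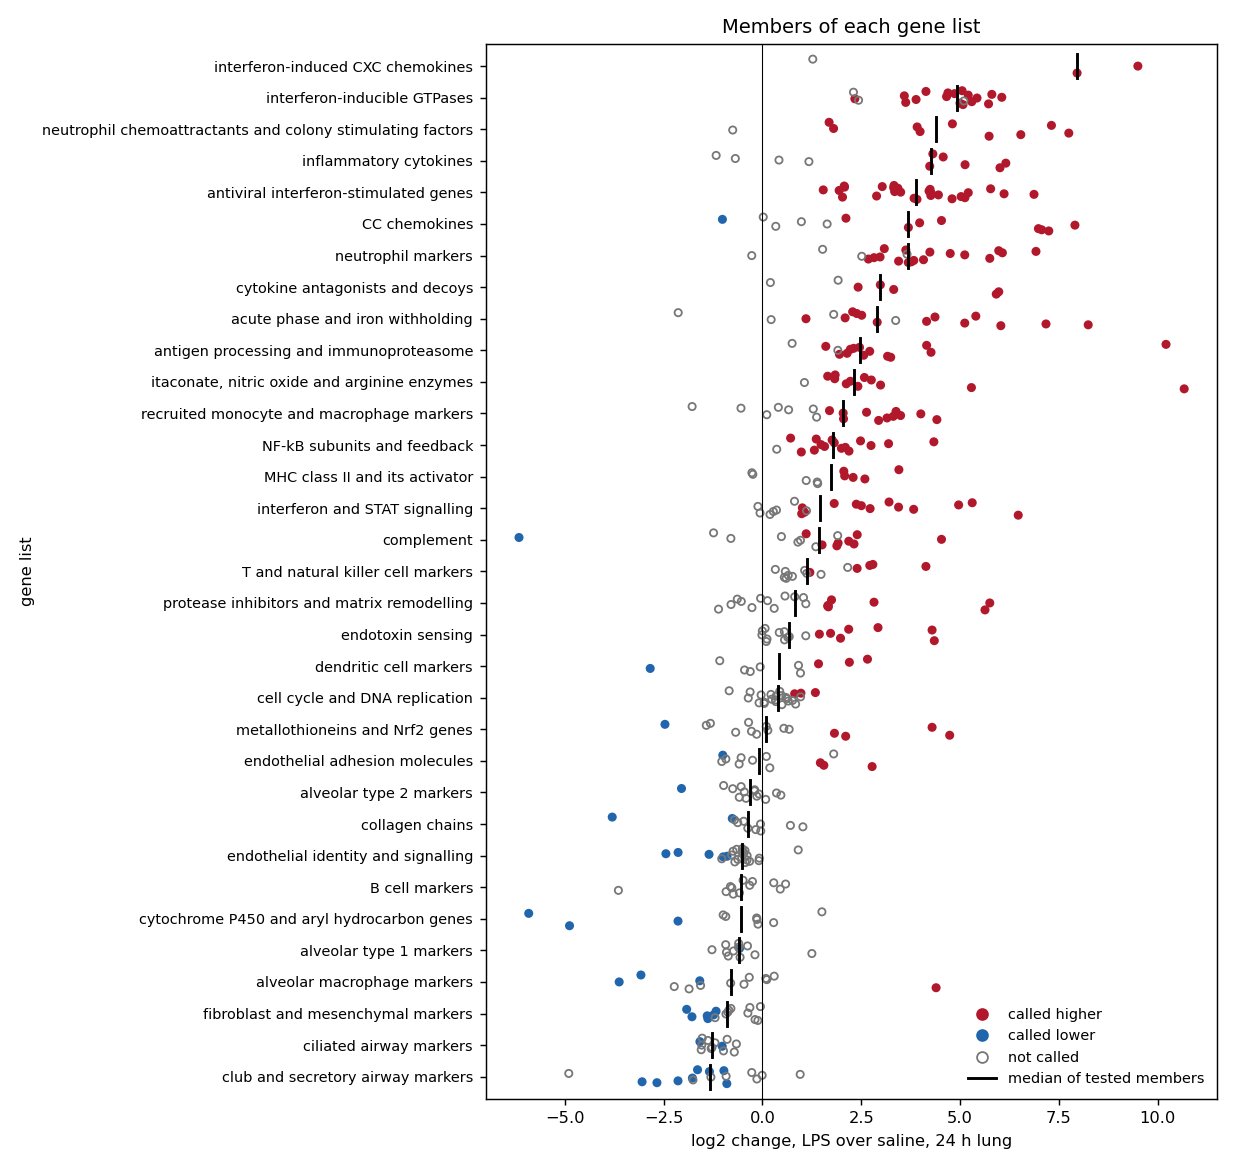
Log2 change, LPS over saline at 24 h, of each tested member of the gene lists, ordered by the median of the list (black bar). Red circles were called higher, blue circles were called lower and open circles were not called. The medians of the interferon, chemokine and cytokine lists lie right of 0 and those of the airway, fibroblast and endothelial lists lie left of it.

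Genes of both antigen presentation pathways were called higher. Ubd, a ubiquitin-like protein that targets substrates to the proteasome, had 366, 1079, 417 and 542 CPM in LPS lungs, against 0 to 1.204 CPM with a median of 0.495 CPM in saline lungs, a change of 10.21 ± 1.06 (adjusted p = 4.61e-14). Tap1, the peptide transporter of the class I pathway, had 315, 440.0, 386 and 336 CPM in LPS lungs, against 13.8 to 26.1 CPM with a median of 18.3 CPM in saline lungs, a change of 4.27 ± 0.45. The immunoproteasome subunit Psmb9 changed by 3.17 ± 0.34 and the class I heavy chain H2-K1 by 2.46 ± 0.26. LPS and saline lungs were apart in all of these. Of 15 genes of the class I pathway 13 were called higher and none lower, with a median of 2.46. Of 10 class II genes 5 were called higher, with a median of 1.73. Ciita, the master activator of class II genes, had 276, 368, 292 and 324 CPM in LPS lungs, against 14.1 to 62.8 CPM with a median of 31.5 CPM in saline lungs, a change of 3.45 ± 0.56. Cd74, the invariant chain, had 9545, 11160, 7288 and 5336 CPM in LPS lungs, against 1419 to 3293 CPM with a median of 1860 CPM in saline lungs, a change of 2.06 ± 0.35. The peptide loaders H2-DMa and H2-DMb1 changed by 2.59 ± 0.50 and 2.30 ± 0.29. The 2 probe rows of H2-DMa disagreed, with changes of -0.3875 and 2.675, and 1 of them was called higher. The structural chains H2-Aa, H2-Ab1 and H2-Eb1 had changes of 1.40, 1.39 and 1.11 and were not called.

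Among the enzymes of activated macrophages, 11 of 12 were called higher, with a median of 2.32. Nos2, the inducible nitric oxide synthase, had 309, 1496, 294 and 346 CPM in LPS lungs, against 10.8 to 21.5 CPM with a median of 15.3 CPM in saline lungs, a change of 5.29 ± 0.49 (adjusted p = 1.15e-16). Replicate 2 stood well above the other 3 LPS lungs, which lay close together and far over saline. Arginine transport and breakdown were represented by Slc7a2 (2.12 ± 0.26), Arg2 (2.99 ± 0.33) and Arg1 (2.42), and arginine synthesis by Ass1 (2.76). Ptgs2, which makes prostaglandins, was not called (1.06).

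Acute phase and iron-withholding genes were called higher in 13 of 17 tested, with a median of 2.91. Saa3, a serum amyloid A made in inflamed lung, had 534, 369, 316 and 294 CPM in LPS lungs, against 0 to 6.17 CPM with a median of 1.61 CPM in saline lungs, a change of 7.17 ± 1.24. Saa2 had 100 counts over the LPS lungs and 0 in every saline lung, and was at least 65.4-fold higher against a floor of 3 counts over the saline group. The protease inhibitors Serpina3g (5.40 ± 0.81) and Serpina3n (4.37 ± 0.65) and the zinc and iron importer Slc39a14 (2.39 ± 0.30) were also called. None of these had overlapping groups. Hp, encoding haptoglobin, was not called (0.22). Of 16 complement genes 8 were called higher, with a median of 1.43, among them Cfb (4.53 ± 0.59) of the alternative pathway, C1ra (2.32 ± 0.33), C3 (2.19 ± 0.34) and C1s1 (1.92 ± 0.32). Cfd, an alternative pathway protease made largely by fat cells, was called lower, with 0 counts in every LPS lung and 50 over the saline lungs, at least 8.5-fold lower against the same floor over the LPS group.

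The metal-binding protein gene Mt2 had 689.6, 1270, 1103 and 408 CPM in LPS lungs, against 12.2 to 60.8 CPM with a median of 33.04 CPM in saline lungs, a change of 4.74 ± 0.46, and Mt1 changed by 2.11 ± 0.42. Of 15 metallothionein and Nrf2 genes 4 were called higher and 1 lower, with a median of 0.10. The cystine carrier Slc7a11 (4.29 ± 0.75) and Hmox1 (1.82) were the other rises, and Gsta2, a glutathione transferase, was lower (-2.46 ± 0.69), a call lost without LPS replicate 2. Nqo1 (-0.68), Gclc (-0.28) and Gclm (0.14) were not called.

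Most markers of neutrophils were called higher in LPS lungs. Of 21 neutrophil markers tested 17 were called higher and none lower, with a median of 3.69, and their summed level was 4256 to 6653 CPM in LPS lungs, against 245.1 to 439.5 CPM in saline lungs. Clec4e, the receptor Mincle, had 646, 1604, 953 and 807 CPM in LPS lungs, against 8.99 to 24.2 CPM with a median of 13.6 CPM in saline lungs, a change of 6.07 ± 0.64. Retnlg, a resistin-like protein of granulocytes, had 111.8, 111.9, 155 and 122.7 CPM in LPS lungs, against 3.16 to 13.8 CPM with a median of 6.41 CPM in saline lungs, a change of 4.08 ± 0.48. The calprotectin gene S100a8 had 20.2, 13.6, 25.97 and 14.9 CPM in LPS lungs, against 0 to 4.97 CPM with a median of 0.797 CPM in saline lungs, a change of 3.45 ± 0.996 (adjusted p = 0.01). Each of these was apart between the groups. Elane, of the primary granules of immature neutrophils, had 0 counts in every LPS and saline lung, Mpo had 18 counts over the LPS lungs and 2 over the saline lungs, and the granule gene Ltf was not called (-0.27). Clec4e, Il1r2 and Lcn2 are also made by other cells.

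Of 18 markers of recruited monocytes and macrophages 11 were called higher and none lower, with a median of 2.05 and a summed level of 9220 to 17150 CPM in LPS lungs, against 2305 to 3996 CPM in saline lungs. Ly6c2, of inflammatory monocytes, had 135.3, 329, 171 and 24.2 CPM in LPS lungs, against 4.503 to 11.5 CPM with a median of 7.27 CPM in saline lungs, a change of 4.41 ± 0.49. Mpeg1, a pore-forming protein of macrophages, had 4545, 7580, 7336 and 3636 CPM in LPS lungs, against 624 to 1179 CPM with a median of 974 CPM in saline lungs, a change of 2.63 ± 0.23. Replicate 4 was the lowest LPS lung for both and still lay above saline. Plac8 (3.50 ± 0.33) and Ly6c1 (2.94 ± 0.31) were also called, Ly6c1 being a gene that lung endothelium expresses too. Lyz2 (0.66), Trem2 (0.40) and Mrc1 (-1.78) were not called.

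Of the markers of resident alveolar macrophages 1 of 13 tested was called higher and 3 were called lower, with a median of -0.80. Marco, a scavenger receptor inducible by endotoxin, had 2.30, 11.5, 28.4 and 12.7 CPM in LPS lungs, against 0 to 1.74 CPM with a median of 0.306 CPM in saline lungs, a change of 4.39 ± 0.91. Fabp1, a fatty acid binding protein, had 3.89, 5.89, 1.202 and 3.24 CPM in LPS lungs, against 22.7 to 52.8 CPM with a median of 46.2 CPM in saline lungs, a change of -3.62 ± 0.69. Neither overlapped. Fabp4 (-1.58 ± 0.55) and the lipid droplet protein Cidec (-3.07 ± 1.01) were called lower, and Siglecf (-1.85), Ear1 (-2.23) and Pparg (-0.80) were not called. The Fabp4 and Cidec calls were lost in 9 and 6 of the 19 alternative settings. Which cells of the lung tissue these 2 falls came from was not tested. Summed levels overlapped, at 712.7 to 1347 CPM in LPS lungs and 569.4 to 1716 CPM in saline lungs. Leaving out saline replicate 2, or LPS replicate 1, 2 or 4, left 1 marker called lower.

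Of 15 T and natural killer cell markers tested 5 were called higher, with a median of 1.12. These were the cytotoxic granule genes Gzmb (4.14 ± 0.92), Prf1 (2.72 ± 0.66) and Nkg7 (2.79 ± 0.63), the activating receptor Klrk1 (2.40) and the T cell kinase Lck (1.201 ± 0.31). Nkg7 had 549, 918, 518 and 440.0 CPM in LPS lungs, against 43.9 to 216 CPM with a median of 78.9 CPM in saline lungs, with no overlap, whereas Lck overlapped. Cd3e (0.56), Cd4 (0.65) and Cd8a (1.48) were not called, and 3 of the list were called without LPS replicate 2. Of 12 B cell markers edgeR and DESeq2 each called 0, and 2 were lower at an unadjusted p under 0.05 (median -0.53). Ms4a1, which encodes CD20, had 2 counts over the LPS lungs and 59 over the saline lungs and was not called. Of 10 dendritic cell markers 3 were called higher, Batf3 (2.66 ± 0.52), Siglech (2.20 ± 0.63) and Fscn1 (1.42 ± 0.47), and 1 was lower, Cd209a, with 1.42, 1.02, 1.92 and 1.08 CPM in LPS lungs, against 4.25 to 15.8 CPM with a median of 10.02 CPM in saline lungs (-2.84 ± 0.51). Without LPS replicate 2 a single dendritic marker was called higher. Cell cycle genes were called higher in 3 of 24, Tk1 (1.34 ± 0.38), Rrm2 (0.98 ± 0.34) and Pcna (0.82 ± 0.22), with Mki67 at 0.49 and not called, and without LPS replicate 2 in 1 of 24. The Fscn1 and Rrm2 calls were lost in 9 and 13 of the 19 alternative settings, that of Siglech also without LPS replicate 3 and that of Tk1 without LPS replicate 4.

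**Figure D3:**
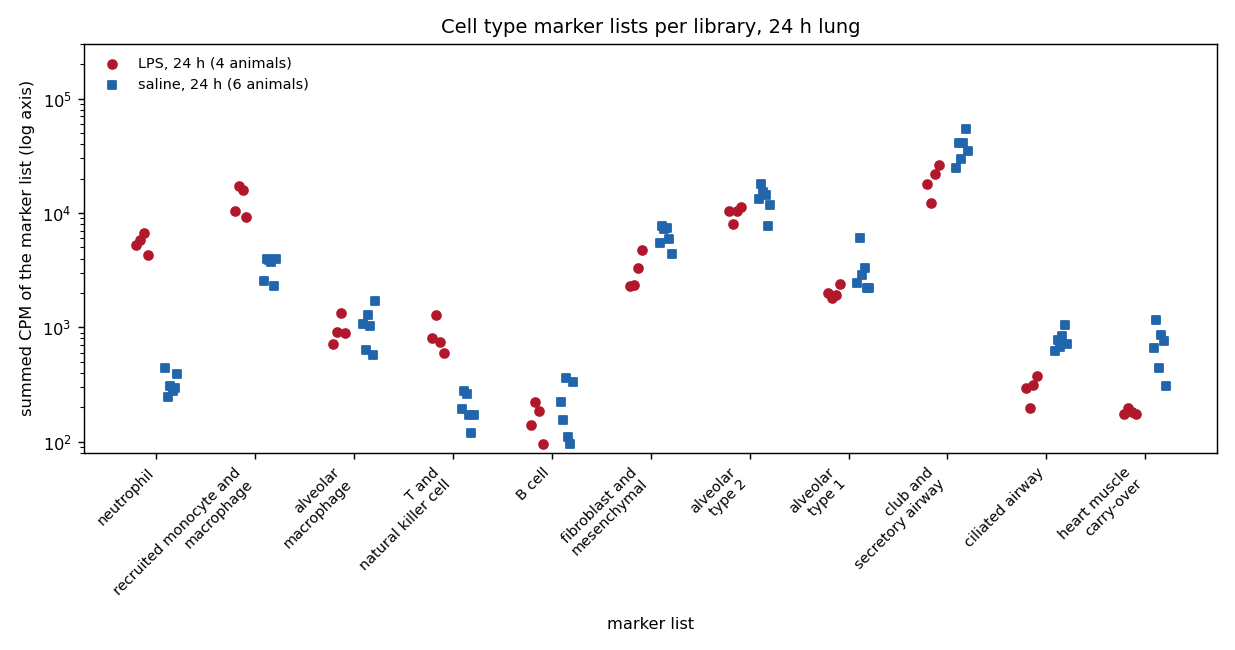
Summed CPM of each marker list in every 24 h lung on a log axis, with LPS lungs (circles, 4 animals) left of saline lungs (squares, 6 animals). Neutrophil markers sum to 4256 to 6653 CPM in LPS lungs and 245.1 to 439.5 CPM in saline lungs, and ciliated airway markers to 197.2 to 375.8 CPM in LPS lungs and 622.3 to 1043 CPM in saline lungs.

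Of 19 protease and matrix remodelling genes tested 7 were called higher, with a median of 0.82. Beside Timp1 these included the gelatinase Mmp9 (2.82 ± 0.42), the membrane-bound Mmp14 (1.75 ± 0.28) and the urokinase gene Plau (1.67 ± 0.24), which had 70.8 to 119.7 CPM in LPS lungs, against 24.7 to 37.7 CPM with a median of 31.03 CPM in saline lungs. Mmp8, a neutrophil collagenase, had 72 counts over the LPS lungs and 2 over the saline lungs, a ratio of 70.6-fold with an exact 95% counting interval of 18.8 to 594. Timp2 (-1.11) and Timp3 (0.30) were not called. Collagen chains were called lower in 2 of 11 tested, with a median of -0.37. Col14a1, a fibril-associated collagen, had 0.354, 0.256, 0.240 and 1.08 CPM in LPS lungs, against 4.75 to 11.3 CPM with a median of 6.05 CPM in saline lungs, a change of -3.80 ± 0.76. Col6a3 changed by -0.76 ± 0.26 with overlapping groups, and its call was lost in 9 of the 19 alternative settings, among them leaving out any 1 of the LPS lungs. Col1a1 (-0.04) and Col3a1 (-0.37) were not called.

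Fibroblast and mesenchymal markers were called lower in 6 of 16, with a median of -0.90. Dcn, the matrix proteoglycan decorin, had 33.1, 41.8, 29.1 and 30.02 CPM in LPS lungs, against 61.6 to 139.4 CPM with a median of 80.5 CPM in saline lungs, a change of -1.38 ± 0.30. Cnn1, a smooth muscle calponin, had 100.6, 46.9, 72.9 and 76.02 CPM in LPS lungs, against 145 to 426 CPM with a median of 303 CPM in saline lungs, a change of -1.92 ± 0.48. Both were below saline in every LPS lung. Gdf10, a TGF-beta family ligand of lung fibroblasts, changed by -1.78 ± 0.45 and the matrix protein gene Npnt by -1.40 ± 0.33. Pdgfra (-0.11) and Pdgfrb (-0.19) were not called, and on plate 2 alone 2 of the list were called.

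Among endothelial genes, 3 adhesion molecules were called higher and 5 identity genes lower. Selp, the P-selectin that slows rolling leukocytes, had 27.9, 67.1, 23.3 and 22.5 CPM in LPS lungs, against 2.75 to 6.96 CPM with a median of 5.57 CPM in saline lungs, a change of 2.78 ± 0.50. Icam1 (1.55 ± 0.34) and Vcam1 (1.47 ± 0.25), which hold leukocytes firmly, were also called higher, with no overlap between groups. Vwf, the platelet-binding von Willebrand factor, had 216, 248, 343 and 460.3 CPM in LPS lungs, against 575 to 690.5 CPM with a median of 633 CPM in saline lungs, a change of -1.001 ± 0.24. Of the 12 adhesion genes tested 3 were called higher and Vwf lower, and Sele was not called (0.19). Of 23 endothelial identity and signalling genes 5 were called lower and none higher, with a median of -0.52. These were the apelin receptor Aplnr (-2.44 ± 0.69), Ednrb (-2.13), the apelin gene Apln (-1.35 ± 0.39), the endothelial nitric oxide synthase Nos3 (-0.99 ± 0.23) and the transcription factor Sox17 (-0.89 ± 0.29). Nos3 had 34.5, 29.4, 48.3 and 45.8 CPM in LPS lungs, against 53.04 to 134.1 CPM with a median of 66.2 CPM in saline lungs, and did not overlap. Cdh5 (-0.43) and Pecam1 (-1.03) were not called. Without LPS replicate 2, or without replicate 3, 2 of the 23 were called, and the Apln call was also lost without LPS replicate 4 and that of Sox17 without saline replicate 2.

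Of 16 club and secretory cell genes 8 were called lower and none higher, with a median of -1.32. Scgb3a2, a secretoglobin of club cells, had 144, 81.2, 159 and 194 CPM in LPS lungs, against 712 to 2173 CPM with a median of 1053 CPM in saline lungs, a change of -3.04 ± 0.41 (adjusted p = 1.47e-09). Cyp2f2, a cytochrome P450 of club cells, had 106.8, 43.3, 112.8 and 176 CPM in LPS lungs, against 352 to 616 CPM with a median of 463 CPM in saline lungs, a change of -2.13 ± 0.38. In both genes all LPS lungs lay below all saline lungs and replicate 2 was the lowest. The main club cell secretoglobin Scgb1a1 had 15520, 10160, 18280 and 22670 CPM in LPS lungs, against 20170 to 47200 CPM with a median of 31470 CPM in saline lungs, with overlap and a change of -0.90 ± 0.32 (adjusted p = 0.0446). That call was lost under 12 of 19 alternative settings. Aldh1a1 (-1.77 ± 0.48) was also called, though not without LPS replicate 2. The count was 5 without LPS replicate 1 and 2 without replicate 2.

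Ciliated cell genes had a median of -1.27, but 2 of 13 tested were called, Tppp3 (-1.58 ± 0.20), which stabilises microtubules, and Sntn (-1.02 ± 0.36). Tppp3 had 179, 129.1, 179.6 and 194 CPM in LPS lungs, against 386 to 612 CPM with a median of 529.6 CPM in saline lungs, with no overlap. The summed ciliated markers were 197.2 to 375.8 CPM in LPS lungs, against 622.3 to 1043 CPM in saline lungs, also without overlap. Foxj1, the ciliated cell transcription factor, was not called (-0.71). Single libraries moved this count, with 1 called without LPS replicate 1, 2 or 3 or saline replicate 1, 4, 5 or 6.

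In the lists of the gas-exchange epithelium 2 genes were called. Of 14 alveolar type 2 genes tested 1 was called lower, Hc (-2.06 ± 0.68), encoding complement C5, and the median was -0.31. The Hc call was lost in 6 of the 19 alternative settings, among them leaving out LPS replicate 1, 2 or 3 or saline replicate 6. Sftpc, the surfactant protein C gene, had 3694, 2914, 4586 and 4271 CPM in LPS lungs, against 2753 to 8270 CPM with a median of 5932 CPM in saline lungs, and was not called (-0.58 ± 0.33, adjusted p = 0.276). The LPS lungs lay within the saline range. Of 12 alveolar type 1 genes 1 was called lower, the vascular growth factor Vegfa, with 724, 534, 590.1 and 864 CPM in LPS lungs, against 896 to 1101 CPM with a median of 1041 CPM in saline lungs (-0.59 ± 0.15). The Vegfa call was lost in 2 of the 19 alternative settings, single probes and only the groups compared. Ager (-0.56) and Aqp5 (-0.19) were not called.

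Several of the largest falls lay outside the epithelial lists and were of low level. Pck1, the gluconeogenic enzyme of liver, kidney and fat, had 0.354, 0, 0.481 and 0 CPM in LPS lungs, against 2.65 to 100.9 CPM with a median of 28.98 CPM in saline lungs, a change of -7.19 ± 1.67. Cyp1a1, the classical target of the aryl hydrocarbon receptor, had 0.177, 0, 0.481 and 0.432 CPM in LPS lungs, against 4.87 to 14.4 CPM with a median of 7.56 CPM in saline lungs, a change of -4.88 ± 0.84 (adjusted p = 2.39e-06). Both were apart between groups, with all LPS lungs under 1 CPM. Cyp1b1, another target of that receptor, was not called (-0.11). Of 10 P450 and aryl hydrocarbon genes tested 3 were lower, the third being Cyp4a12a, with 0 counts over the LPS lungs and 35 over the saline lungs, at least 5.95-fold lower, a call lost without LPS replicate 1 or 2. Cd209b, a lectin of tissue macrophages, had 0.177, 0, 0 and 1.30 CPM in LPS lungs, against 4.26 to 10.3 CPM with a median of 5.19 CPM in saline lungs (-3.92 ± 0.78). The glutamate receptor subunit Grin2b (-3.78 ± 0.65), the proton pump subunit Atp6v1b1 (-3.80 ± 0.74), Adprhl1 (-3.67 ± 0.86), the carboxylesterase Ces1f (-3.51 ± 0.65) and Colq (-3.41 ± 0.64) were below saline in every LPS lung. Clca1, a secreted protein of goblet cells, had 2.48, 0, 0 and 0 CPM in LPS lungs, against 2.96 to 86.5 CPM with a median of 7.86 CPM in saline lungs (-4.92 ± 1.72), and Swt1 overlapped (-3.50 ± 1.24). The Clca1 and Swt1 calls were lost in 8 and 13 of the 19 alternatives.

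Other large rises outside the lists were Slfn4, a Schlafen family gene of myeloid cells, with 1189, 4354, 2219 and 3222 CPM in LPS lungs, against 7.37 to 24.5 CPM with a median of 8.93 CPM in saline lungs (7.85 ± 0.68). Ly6i had 272, 409, 371 and 127.6 CPM in LPS lungs, against 0.149 to 2.75 CPM with a median of 1.27 CPM in saline lungs (7.83 ± 0.85). Calhm6, of an ion channel family, had 60.3, 85.03, 44 and 33.7 CPM in LPS lungs, against 0 to 0.602 CPM with a median of 0.125 CPM in saline lungs (7.72 ± 0.92). The groups were far apart in all 3.

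Genes of heart muscle and pancreas also differed between the groups. Heart muscle markers summed to 176.2 to 195.7 CPM in LPS lungs, against 307.1 to 1152 CPM in saline lungs, and 4 of 8 were called lower, with a median of -2.06. Myl7 (-2.99 ± 0.83), Myh6 (-2.25 ± 0.76), Tnni3 (-2.24 ± 0.61) and Myh7 (-1.06 ± 0.30) were the 4. Without LPS replicate 2, and likewise without replicate 3, the count was 2, and on plate 2 alone, with 3 LPS lungs, edgeR called 0. Adprhl1 and Ctnna3 are also known from heart muscle, and the part of heart tissue in their falls was not tested. Of 4 pancreas markers tested 2 were called higher, and LPS replicate 1 set both. Pnlip had 5.13, 0.256, 0 and 0 CPM in LPS lungs and 0 in every saline lung, and Try4 had 7.07, 0, 0 and 0 CPM in LPS lungs, against 0 to 0.250 CPM in saline lungs. Of 9 red cell and platelet markers edgeR and DESeq2 each called 0, and 0 had an unadjusted p under 0.05 (median 0.03), with summed levels of 478.8 to 941.9 CPM in LPS lungs and 513.1 to 1834 CPM in saline lungs.

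The 24 h effect was set against that at 4 h, where 793 genes were called higher (5.48% of those tested) and 505 lower (3.49%) in LPS lungs, 8.98% in all. Of the 24 h calls, 525 higher genes were also called higher at 4 h, which is 47.9% of the 24 h genes and 66.2% of the 4 h genes. For lower genes 164 were shared, 25.2% of the 24 h genes and 32.5% of the 4 h genes. The 2 times used different saline animals. All 4 h lungs of these groups were on plate 1, so time and plate are joined in them except through replicate 1 of the 24 h groups, and the plate term of the fit rests on the other groups as well. Testing the difference itself called 63 genes with a higher log2 effect at 24 h (0.436%) and 21 with a lower one (0.145%). With DESeq2's size factors these counts were 64 and 37, and without LPS replicate 2 of 24 h they were 16 and 3. Of the 63, 41 were called higher at 24 h and not called at 4 h, 12 were called higher at both times, and 10 were called lower at 4 h. Of the 21, 14 were called lower at 24 h and not called at 4 h, and 7 were called higher at 4 h and not called at 24 h.

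Nos2 averaged 611 ± 590.3 CPM in LPS lungs and 15.6 ± 3.65 CPM in saline lungs at 24 h, and 12.8 ± 6.25 CPM in 4 h LPS lungs and 10.3 ± 9.21 CPM in 4 h saline lungs (SD, n = 4 and 6 at each time). Its effect was 5.29 ± 0.49 at 24 h and 0.32 ± 0.45 at 4 h, a difference of 4.97 ± 0.67 (adjusted p = 1.04e-07). Mpeg1 changed by 2.63 ± 0.23 at 24 h and 0.12 ± 0.22 at 4 h, a difference of 2.52 ± 0.32 (adjusted p = 2.11e-08). Slamf8, a macrophage receptor of the SLAM family, differed by 5.29 ± 1.07, Irf8 by 2.04 ± 0.39 and H2-DMb1 by 1.92 ± 0.42. These 5, and Enpp6, kept their call under all 27 alternatives tried. Ubd was called at both times, with 10.21 ± 1.06 at 24 h and 4.28 ± 0.94 at 4 h and a difference of 5.93 ± 1.46. Timp1 (2.44 ± 0.55), Gbp2 (1.90 ± 0.50) and Ly6g (1.90 ± 0.44) were likewise called at both times with the larger effect at 24 h. Their differences were not called without LPS replicate 2 of 24 h, nor was that of Ubd. Over the 21 neutrophil markers tested the difference was called in 1, with a median of 0.23. Ciita differed by 3.03 ± 0.80, Plau by 1.66 ± 0.34, Apol6, of the apolipoprotein L family, by 4.72 ± 1.22 and Ly6i by 4.10 ± 1.07. The calls of Ciita, Ly6i and Apol6 were lost in 17, 15 and 11 of the 27 alternatives and that of Gbp2 in 12, and Plau lost its call when only the groups compared were fitted. Tnfsf4, the OX40 ligand, had 5.13, 9.99, 6.25 and 3.46 CPM in 24 h LPS lungs and averaged 0.0886 ± 0.103 CPM in 4 h LPS lungs and 0.287 ± 0.435 CPM in 4 h saline lungs (SD, n = 4 and 6), a difference of 7.30 ± 1.76. Its 4 h level is near that of a single read per library, and its call was lost in 6 of the 27 alternatives. The differences of Ciita, Ly6i, Apol6 and Tnfsf4 were also not called without LPS replicate 2 of 24 h.

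Among named genes with a lower effect at 24 h was Cyp1a1, which changed by -4.88 ± 0.84 at 24 h and -0.41 ± 0.54 at 4 h (difference -4.46 ± 1.001). Scgb3a2 changed by -3.04 ± 0.41 at 24 h and -0.79 ± 0.36 at 4 h (difference -2.26 ± 0.51). Enpp6, a choline phosphodiesterase, had 5.13, 4.61, 10.1 and 12.96 CPM in LPS lungs at 24 h, against 31.5 to 60.1 CPM with a median of 41.7 CPM in saline lungs, and differed by -2.96 ± 0.58 between the times. Col14a1 (-3.52 ± 0.94), Colq (-3.16 ± 0.81), Ctnna3 (-2.98 ± 0.74) and Vwf (-1.22 ± 0.33) were the other named genes with a lower effect at 24 h. Without LPS replicate 2 of 24 h the differences of Cyp1a1, Scgb3a2, Col14a1, Colq, Ctnna3 and Vwf were not called. The calls of Vwf and Col14a1 were lost in 19 and 16 of the 27 alternatives, and those of Colq and Ctnna3 in 9 and 5.

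**Figure D4:**
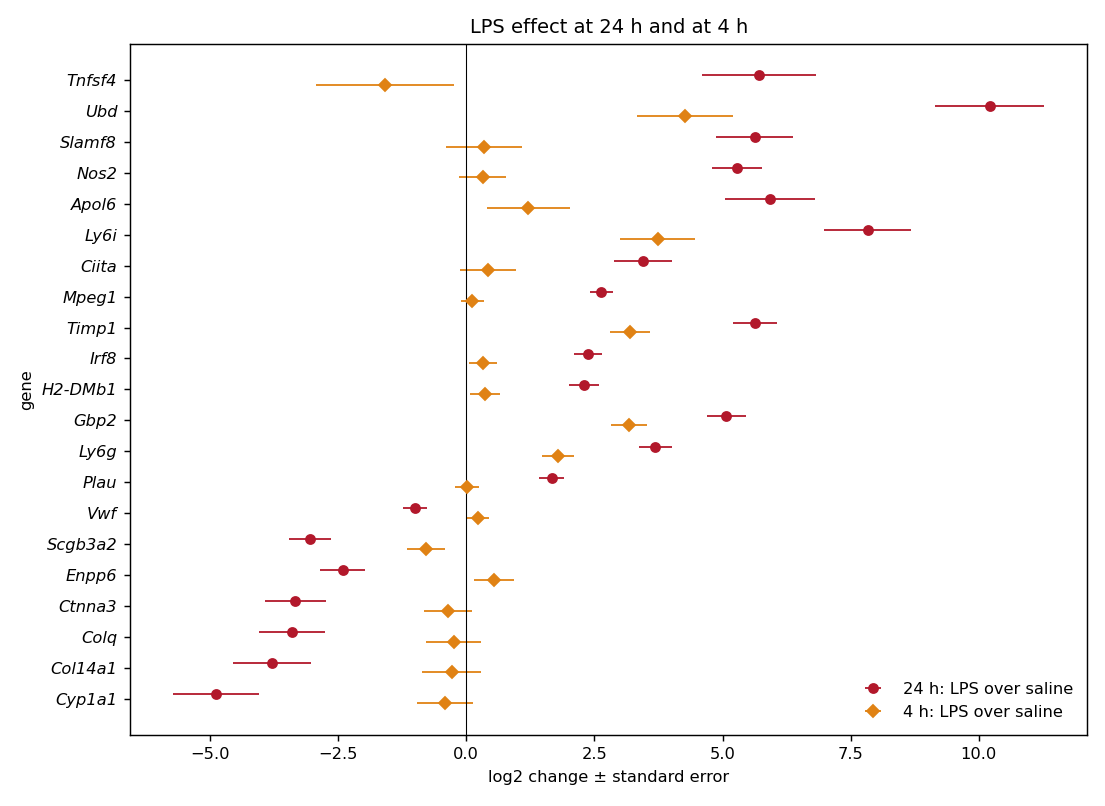
Log2 change, LPS over saline, at 24 h (circles) and at 4 h (diamonds). Shown are the 21 named genes whose effects differed between the times at an adjusted p under 0.05. Bars are the approximate standard error worked back from the F statistic. Nos2, Slamf8, Mpeg1 and Plau lie near 0 at 4 h and right of it at 24 h, and Cyp1a1, Col14a1, Colq and Ctnna3 lie near 0 at 4 h and left of it at 24 h.

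Calls per list at each time are counts, and a difference between the times was called for few members. Class II genes had 5 calls at 24 h and 0 at 4 h by edgeR, where 1 was lower at an unadjusted p under 0.05, with medians of 1.73 at 24 h and 0.19 at 4 h, and the effects of 2 of 10 differed between the times. T and natural killer cell markers had 5 calls at 24 h and 0 at 4 h by edgeR, where 1 was higher at an unadjusted p under 0.05, and recruited monocyte and macrophage markers 11 and 5. Complement genes had 8 higher at 24 h and 2 at 4 h. The difference itself was called by edgeR in 0 of 15 T and natural killer cell markers, where 4 were higher at an unadjusted p under 0.05 and DESeq2 called 1. It was called in 1 of 18 monocyte and macrophage markers. For complement edgeR called 0 of 16, where 7 were higher and 1 lower at an unadjusted p under 0.05 and DESeq2 called 1. Over all 14458 genes tested, 1209 had an unadjusted p under 0.05 for this difference, in either direction. Antiviral genes had 26 at each time, NF-kB genes 15 at each, and neutrophil chemoattractants 9 and 8, with medians of 4.398 at 24 h and 5.58 at 4 h. Neutrophil markers had 17 higher at 24 h and 15 at 4 h, with medians of 3.69 and 3.43. Their summed level in LPS lungs was 4256 to 6653 CPM at 24 h and 5097 to 14190 CPM at 4 h. In saline lungs it was 245.1 to 439.5 CPM at 24 h and 374.2 to 1530 CPM at 4 h. Endothelial adhesion molecules had 3 higher at 24 h and 5 at 4 h, and 1 of 12, Vwf, differed between the times. The Vwf call was lost in 19 of the 27 alternatives.

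Set against the mean of the 10 smokes at 24 h, 1804 genes were higher in LPS lungs (12.5% of those tested) and 1160 were lower (8.02%). DESeq2 called 1660 higher and 2148 lower, so that the balance of the 2 directions turned. The smoke mean includes 6 lungs with fewer than 13000 detected genes. Without them 2518 genes were called higher and 2147 lower. Lower genes numbered 721, 435 and 642 without LPS replicate 1, 2 and 3. This comparison and that with saline share the LPS lungs. Acod1 reached 1400 to 4555 CPM in LPS lungs, against 0 to 124.8 CPM over the 60 smoke lungs with a median of 1.71 CPM. The highest smoke group mean for Acod1 was 23.6 ± 49.7 CPM in flaming eucalyptus (SD, n = 6), set by a library of 124.8 CPM. Timp1 reached 718 to 2404 CPM in LPS lungs, against 19.6 to 475 CPM in smoke lungs. For Acod1, Gbp2, Timp1 and Ly6g every LPS lung was above every smoke lung. Flaming peat came nearest for Timp1, at 215.3 ± 144.6 CPM (SD, n = 6), against 1236 ± 794 CPM in LPS lungs (SD, n = 4). The named rises against the smokes were Acod1 (9.35 ± 0.46), Ubd (9.30 ± 0.39), Csf3 (8.74 ± 0.49), Cxcl10 (8.51 ± 0.34) and Cxcl9 (7.995 ± 0.46). The named falls were Pck1 (-5.26 ± 1.53), Cyp1a1 (-4.61 ± 0.78), Ang5 (-4.42 ± 1.603), an RNase A family gene, Fabp1 (-3.87 ± 0.65), Grin2b (-3.85 ± 0.60) and Ces1f (-3.73 ± 0.60). Of these 11 genes 9 kept their call under all 13 alternatives. Ang5 lost it when any 1 of the 4 LPS lungs was left out, and Ang5 and Pck1 lost it on plate 2 alone. Cyp1a1 averaged 0.272 ± 0.225 CPM in LPS lungs (SD, n = 4), against group means of 3.52 to 20.1 CPM in the smokes and 8.56 ± 3.503 CPM in saline lungs (SD, n = 6).

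**Figure D5:**
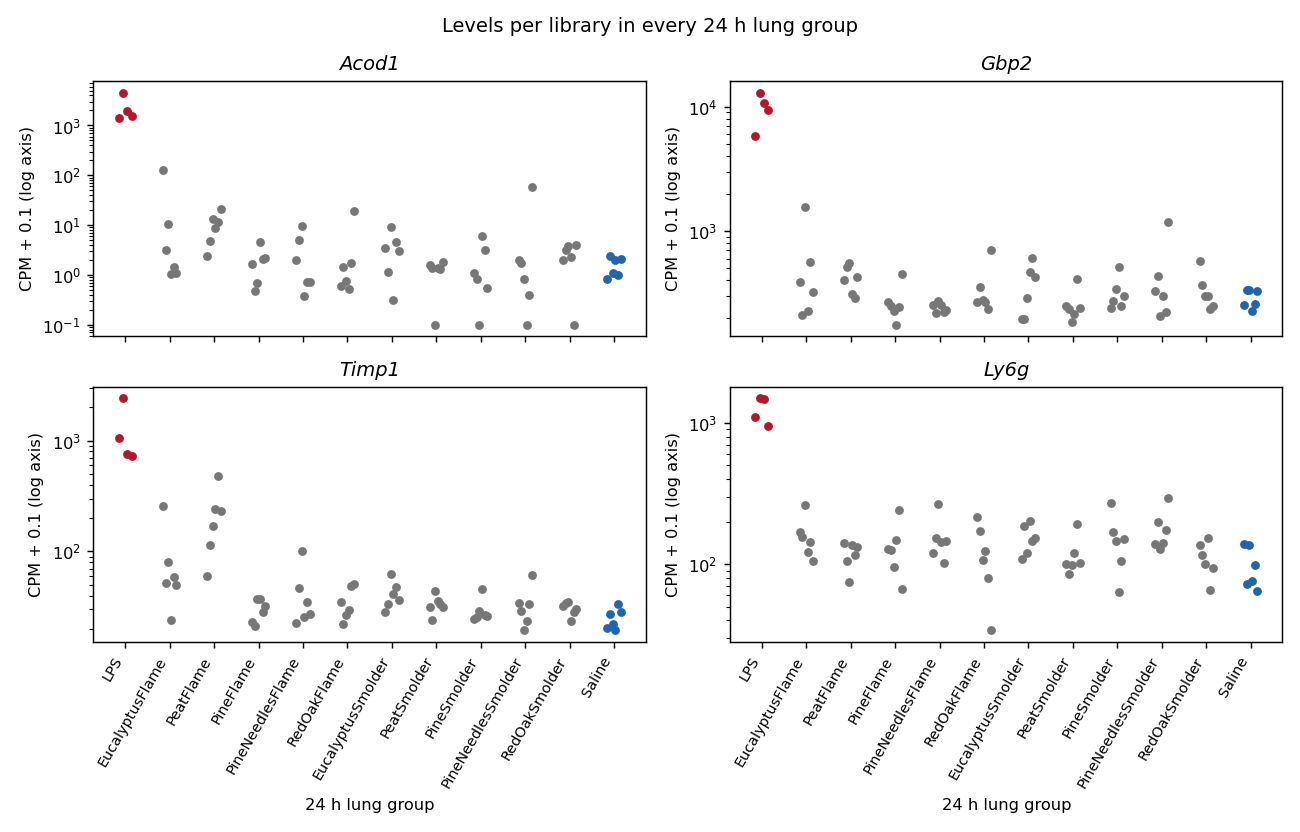
CPM plus 0.1 on a log axis of Acod1, Gbp2, Timp1 and Ly6g in every library of the 24 h lung groups, with LPS (red) at the left, the 10 smokes (grey) between and saline (blue) at the right. The lowest LPS lung has 1400 CPM of Acod1 and the highest smoke lung has 124.8 CPM.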

How the data were processed

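Lung RNA was measured with sequenced probes (TempO-Seq, per the labels' protocols, which also name a 3' tag kit). The authors deposited raw read counts for 30146 probe rows, unnormalised per the values of the table. Bowtie and DESeq2 are named in the submitters' processing notes without versions, and the genome build is not given in the sources used here. Rows were summed to 21450 gene symbols. One model of all 140 lung libraries, with a term for each group and for the plate in the sample title, was fitted with edgeR 4.0.16 in R 4.3.3 (TMM scaling, filterByExpr, quasi-likelihood F test), which left 14458 genes, with Benjamini-Hochberg adjustment over all of them. Total counts over the lung libraries were 4.43 M to 8.05 M. Within the LPS and saline groups at 24 h and 4 h, no 2 libraries had the same counts, and the smoke groups were not checked. CPM values use the TMM-scaled totals. Floors and intervals cover counting error only, with 3 counts over a group as the floor.

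Named genes were the 12 largest rises and falls among called genes with a group mean of at least 5 CPM, up to 4 called members of each list by smallest p, and fixed markers. For the difference between times and for the smokes they were the 6 largest each way. Genes known by a clone name are counted and not named, and some other results are not reported here. Other list members given as examples were chosen after their values were seen. The members and lists were chosen with earlier results of these data known. The fit was tested on simulated data for LPS against saline at 24 h with 14458 genes, and recovered 0 of 50 genes changed 1.5-fold, 7 of 50 changed 2-fold, 24 of 50 changed 3-fold and 41 of 50 changed 4-fold, with 5 false calls among 77. The changed genes were drawn from those averaging above 5 CPM, and the simulated spread followed the trend over genes. Far fewer genes changed in the simulation than were called in the data, which makes the adjusted p stricter there. Alternatives were another scaling, DESeq2 1.42.0, no filter on low counts, single probes, other sets of libraries and leaving out each library.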

Additional observations from a re-analysis of the deposited data

Results flagged for a closer look

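Saline replicate 2 stood apart from the other saline lungs at 24 h, with the fewest detected genes (13196) and the highest mitochondrial share (0.208% of counts). Of the 286 sets of values of a named gene in a group that were looked at on log2(CPM + 1), 13 had a library apart from the rest, where chance gives about 1 in 20. LPS replicate 2 was apart as the highest for Nos2 (1496 CPM), Plac8 (1031 CPM) and Ccl3 (303 CPM). LPS replicate 1 was apart as the highest for Try4 (7.07 CPM), Pnlip (5.13 CPM) and Clca1 (2.48 CPM). LPS replicate 4 was apart as the highest for Col14a1 (1.08 CPM) and the lowest for Slc39a14 (73.4 CPM). In saline lungs, replicate 5 was the lowest for H2-K1 (438 CPM). Saline replicate 1 was the highest for Tnfsf4 (0.589 CPM), and for Cxcl3 and Cxcl9 it held the 1 count of the group (0.147 CPM). Saline replicate 2 was the lowest for Slamf8, with 0 CPM.

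The LPS effect at 24 h minus that at 4 h, tested in the fit, differed from 0 for 21 named genes. It was larger at 24 h, on the log2 scale, by 7.30 for Tnfsf4, 5.93 for Ubd, 5.29 for Slamf8, 4.97 for Nos2, 4.72 for Apol6, 4.10 for Ly6i and 3.03 for Ciita. It was also larger by 2.52 for Mpeg1, 2.44 for Timp1, 2.04 for Irf8, 1.92 for H2-DMb1, 1.90 for Gbp2, 1.90 for Ly6g and 1.66 for Plau. The differences below 0 were -4.46 for Cyp1a1, -3.52 for Col14a1, -3.16 for Colq, -2.98 for Ctnna3, -2.96 for Enpp6, -2.26 for Scgb3a2 and -1.22 for Vwf. Of these genes 6 kept the call under all 27 alternatives, and 14 lost it without LPS replicate 2 of 24 h.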

How the results depend on the processing

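Of 142 called named genes 36 lost the call at 24 h under at least 1 of the 19 alternatives, and the others kept it under each that gave a value. With 4 LPS lungs the counts depend on single libraries. In the simulated data 7 of 50 changes of 2-fold were recovered. The simulation called 77 genes in all, against 1748 in the data, so its cutoff on the unadjusted p was stricter. The share of small changes missed in the data was not measured. Leaving out each library gave 752 to 1145 higher and 234 to 675 lower genes, lowest without LPS replicate 2, and 1107 and 591 without saline replicate 2. Lower calls were 337 in 24 h libraries alone, 313 with only the groups compared, and 157 on plate 2 alone, where 612 were higher. Without the 6 lung libraries of few detected genes (under 13000), 1518 genes were called higher and 1128 lower. Of those 6 libraries 0 were 24 h LPS or saline lungs, and all 6 were 24 h smoke lungs. DESeq2 called 978 lower. For the difference between times, with 63 higher and 21 lower as reported, DESeq2 gave 1.0e+02 (to 2 digits) and 71, its size factors in edgeR 64 and 37, the groups compared alone 42 and 7, libraries of enough genes 154 and 82, and single probes 55 and 13. Leaving out each library gave 16 to 77 and 3 to 29, and 77 and 22 without saline replicate 2 of 24 h. DESeq2's size factors moved the median of this difference over all genes to -0.16, against -0.05 with TMM. Against the smokes lower calls were 2148 by DESeq2, 606 in 24 h libraries alone, 588 with only the groups compared and 2147 without libraries of few detected genes, and leaving out each library gave 1228 to 1803 higher and 435 to 1082 lower. The Tlr4 change, not called, was -0.030 with DESeq2's size factors, -0.028 with DESeq2 and -0.15 to 0.57 with each library left out, below 0 without saline replicate 2 or 3. The Try4 change was -1.75 to 4.03 with each library left out, below 0 without LPS replicate 1. The cause was not tested. Plate 2 alone, against the 9 smokes with lungs there, gave 1104 higher and 272 lower, an alternative chosen after seeing the data. No paired analysis was possible because no animal number is shared between the lung groups compared.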
